A study of Mus musculus with 20 samples.

Results

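Loss of 1 of the 2 copies of Runx2 was examined in cultured haematopoietic stem cells (HSC) of mouse bone marrow, by comparing all genes between 3 heterozygous (het) and 3 wild-type (WT) RNA libraries. These 6 samples were chosen by their genotype labels from the 20 of the series, and each is a primary population sorted as CD201+, CD150+, cKit+, Sca1+ and negative for lineage markers, then cultured. Both groups share tissue, sort and culture, and differ in the labelled genotype only, a Runx2 heterozygous knockout against WT. The design text of the series gives floxed mice or CRISPR as the way Runx2 was removed, and no label assigns either to a library, states the deleted exons, or says whether replicates were separate animals or cultures. A p-value here thus refers to the variation among libraries, and that variation could be purely technical. Values of homozygous knockout (hom) HSC, which share the WT libraries and one fit with the het libraries, and of CD201- CD150- progenitors (HPC) are given beside those of the het HSC.

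RUNX2 is a DNA-binding transcription factor of the RUNX family, which works with the partner CBFB and is best known for its role in bone formation. Its relatives RUNX1 and RUNX3 act in blood formation and in T cells. The title of the series ties Runx2 to stem cell expansion and to commitment to the T lineage, so the lists of genes described below include stem cell, T-cell, lymphoid and myeloid markers beside cell cycle, ribosome, stress and metabolism genes.

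The deposited values were raw counts of read pairs per gene, 20270575 to 27061457 per het library and 18471641 to 23417608 per WT library. Of 49997 genes, 14959 passed a filter on low counts and were tested. Library levels on the log2 scale correlated at 0.986 to 0.988 (Pearson's r, over genes) within het, at 0.988 within WT and at 0.984 to 0.989 between het and WT, and het replicate 3 differs from the others by gene length, as described below. Of the genes behind the sort, Procr (CD201) averaged 66.7 CPM (counts scaled to a common library total) in het and 48.3 CPM in WT, Slamf1 (CD150) 20.5 and 20.2 CPM, and Kit 510 and 473 CPM. Ly6a, which encodes the Sca1 antigen, had 0 counts in every library, and the reason was not tested. The lineage genes Cd3e, Cd8a, Ms4a1 and Ly6g were at 0 counts in all 6 libraries, and Itgam (CD11b) was the highest of 11 such genes, at 17.3 CPM in het and 14.4 CPM in WT. All 11 together came to 18.8 to 26.9 CPM in het and 15.2 to 23.3 CPM in WT.

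Runx2 itself fell, and 4 genes rose. Runx2 reached 90.0, 96.1 and 87.6 CPM in the het libraries, against 126, 133 and 130.4 CPM in the WT libraries. The groups did not overlap, and the het mean was 70.1% of the WT mean (log2 difference -0.51 ± 0.07, standard error of the fit, 95% interval -0.67 to -0.36, adjusted p = 0.0167 in edgeR's quasi-likelihood test). Hom HSC held 27.5, 30.4 and 26.7 CPM of Runx2 reads, 21.7% of WT, so the het level lay between the other groups. Runx2 occupies chr17:44495987-44814797 (mm10) and was the only called gene of the 14959 that was lower (0.00668%). The other 4 made up 0.0267%.

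The stretch before an annotated start of Runx2 is shown because the gene's own level is the measure of the genotype. That start lies inside the span given above for the gene, which is read on the minus strand. Part of the stretch, with the match in capitals, thus lies within that span and not upstream of it. The stretch holds the letters TGTGGT, the core of the RUNX motif, on its reverse strand (capitals). There are 3 such matches on both strands in the 300 bases from 250 before to 50 after that start. The same letters occur in 16.8% of all 32851 such promoter windows. Of the called genes, Sva and Gm32920 have windows with no match. Sequences here and below are from RefSeq, build GRCm38.p6, and run 5′ to 3′ on the strand of the gene.
Runx2, chr17:44814628-44814877, minus strand: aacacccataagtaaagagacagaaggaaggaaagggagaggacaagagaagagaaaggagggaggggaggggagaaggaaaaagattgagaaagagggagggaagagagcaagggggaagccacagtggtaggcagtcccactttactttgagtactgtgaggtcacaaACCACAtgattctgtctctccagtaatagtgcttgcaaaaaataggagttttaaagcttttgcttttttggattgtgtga

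Commd10, a member of the COMMD family of proteins that take part in endosomal sorting and NF-kB regulation, rose to 49.9, 49.5 and 57.5 CPM in het, against 27.3, 27.6 and 27.2 CPM in WT. The groups lay far apart, with a het mean 191% of WT (log2 0.93 ± 0.12, 95% interval 0.69 to 1.18, adjusted p = 0.00571, edgeR). It lies at chr18:46958819-47087995 (mm10). Hom HSC held a like amount, 57.5, 50.4 and 40.1 CPM, although their Runx2 level was lower than in het. In HPC the gene measured 47.0, 55.3 and 54.9 CPM in het and 19.8, 21.1 and 22.1 CPM in WT. Its log2 difference there was 1.32, in libraries that share no sample with the HSC.

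Sva (seminal vesicle antigen) and the predicted gene Gm32920 were called as well, and both were at 0 in every WT library. Sva had 42, 58 and 63 counts in the het libraries and 0 counts in all 3 WT libraries, which puts het at least 49.1-fold higher when WT is set to a floor of 3 counts over the group (adjusted p = 0.0056, edgeR). Gm32920 had 31, 50 and 32 counts in het and 0 in every WT library, at least 34.1-fold higher on the same floor (adjusted p = 0.00571, edgeR). They lie at chr6:42038394-42042851 and chr1:34681741-34689020 (mm10). Hom HSC held 1.28, 2.79 and 2.49 CPM of Sva beside 1.55, 2.85 and 2.62 CPM in het. For Gm32920 the hom values were 1.40, 1.56 and 1.30 CPM, beside 1.14, 2.46 and 1.33 CPM in het. In HPC, Sva counted 37, 19 and 34 in het and 0 in each WT library, and Gm32920 counted 10, 18 and 15 in het and 0 in each WT library. No other gene had 0 counts in every WT and at least 10 in every het HSC library, and 0 genes showed the reverse. These floors cover counting error only. All het and hom libraries had counts of both genes, and all 6 WT libraries had 0, in HSC and HPC alike. The labels used here do not say whether mutant and WT cells differ in genetic background or in a construct. For Sva, Gm32920 and Commd10 such a difference and the loss of Runx2 cannot be told apart. The same holds for every other gene and list compared here between mutant and WT cells, in HSC and in HPC.

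Ifi27, an interferon-inducible gene whose protein sits at mitochondria and the nuclear envelope, rose to 322, 311 and 388 CPM in het, against 242, 201 and 223 CPM in WT. Every het library was above every WT library, with a het mean 153% of WT (log2 0.62 ± 0.09, 95% interval 0.42 to 0.81, adjusted p = 0.0286, edgeR). Hom HSC held 367, 349 and 382 CPM, while HPC held 236, 217 and 235 CPM in het and 185, 182 and 179.8 CPM in WT. Its level is uncertain, since 7.79% of its exon bases overlap another gene and such reads were not counted. Without WT replicate 2 its difference was 0.55 with an adjusted p of 0.29. Leaving out het replicate 1 or 3, or any 1 WT library, left Runx2, Commd10 and Ifi27 uncalled, with adjusted p of 0.0517 to 0.069 for Commd10, 0.0687 to 0.17 for Runx2 and 0.0687 to 0.29 for Ifi27 (edgeR), while Sva and Gm32920 were called with each of the 6 libraries left out.

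**Figure D1:**
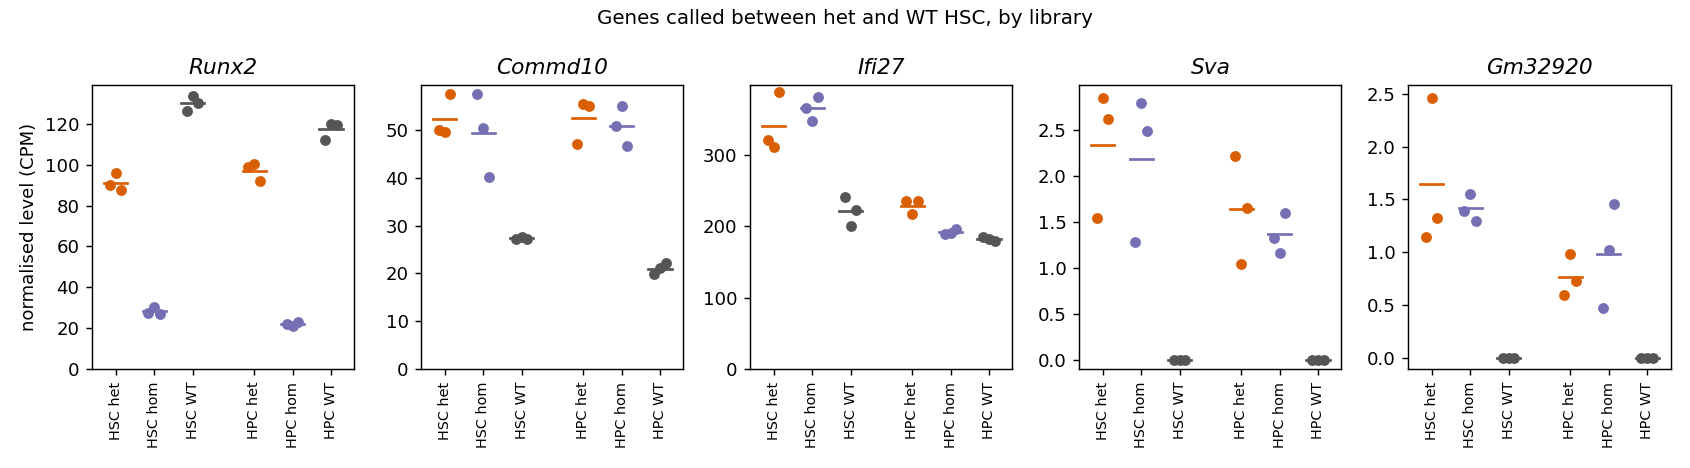
Normalised level (CPM, linear axis) of the 5 called genes in each library of HSC and HPC, with het in orange, hom in violet, WT in grey and a line at each mean of 3. Runx2 shows an intermediate het level, while the het and hom levels of Commd10, Sva and Gm32920 in HSC overlap and lie above WT.

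The next genes in rank did not pass the adjusted threshold, and they are given as values. Among well-expressed named genes whose groups did not overlap, the 8 lower genes of smallest p had adjusted p of 0.0515 to 0.14 (edgeR). Dnajc6 (auxilin, which uncoats clathrin vesicles) had 17.9, 25.2 and 21.7 CPM in het, against 36.5, 35.3 and 34.2 CPM in WT, a log2 difference of -0.71 ± 0.12. Gem, a small GTP-binding protein of the RGK family, had 75.5, 73.9 and 75.0 CPM in het, against 134, 201 and 124 CPM in WT, log2 -1.03 ± 0.16. Separate groups were a condition of the choice. The nearest het and WT libraries held 25.2 and 34.2 CPM for Dnajc6, and 75.5 and 124 CPM for Gem. Il18r1, a subunit of the receptor for interleukin 18, had 6.04, 5.21 and 5.36 CPM in het, against 11.9, 11.7 and 8.60 CPM in WT, so that het held 51.6% of WT. In hom HSC it held 26.0% of WT, and in HPC the het level was 62.6% of WT. Il18r1 and Runx2 therefore had the same order of means, hom below het below WT. How many of the other genes named here had that order was not counted. Smc2, the core subunit of condensin, was at 79.8% of WT, Atp13a3, a polyamine-transporting ATPase, at 76.5%, Hdgfl3, a growth-factor-like chromatin protein with 14.7% of its exon bases shared with another gene, at 75.7%, and Pdp1, the phosphatase that activates pyruvate dehydrogenase, at 64.0%. The macrophage pore protein gene Mpeg1 was at 42.8% of WT in HSC, with 2.03 to 2.66 CPM in het and 4.71 to 5.78 CPM in WT, and at 188% in HPC.

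Of the 8 higher genes chosen in the same way, with adjusted p of 0.0608 to 0.119, the first 2 by p were of similar size in HPC. Ypel3, which restrains the growth of human cells, had 106, 89.3 and 109 CPM in het, against 61.8, 67.2 and 73.9 CPM in WT (log2 0.58 ± 0.10), and in HPC its log2 difference was 0.68. Pink1, the kinase that marks damaged mitochondria for removal, had 145, 138 and 142 CPM in het, against 97.9, 97.9 and 112 CPM in WT (log2 0.47 ± 0.08), and in HPC its log2 difference was 0.53. That neither pair of groups overlapped in HSC was a condition of their choice. H2-T23, which encodes the non-classical MHC molecule Qa-1, and Psmb9, an immunoproteasome subunit, had log2 differences of 0.42 and 0.36, and both also have copies on alternate contigs that can lower their counts. The hypoxia-induced gene Ankrd37 had 0.65, the snoRNA host gene Snhg20 0.74, the netrin receptor gene Unc5a 0.76 and the zinc-finger gene Thap3 0.59. In HPC the last 4 had smaller values of 0.13, -0.07, 0.17 and 0.02, and the difference between HSC and HPC was not tested.

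The wider pattern lay in groups of genes that each differed a little. At an unadjusted p under 0.05, 1062 genes (7.1% of those tested) were higher in het and 1005 (6.72%) were lower. The libraries did not overlap for 1703 higher genes (11.4%) and 1738 lower genes (11.6%). The median log2 difference of all genes was 0.008 and the median standard error 0.126. Lists below are set against these shares, with their genes counted at the unadjusted threshold, since Ifi27 was the only member of the lists of pathways and cell types to pass the adjusted one. The shares moved with the level of a gene. In the fifth of genes with the lowest mean CPM, 3.61% were higher and 2.51% lower. In the fifth with the highest mean CPM, 8.46% were higher and 12.8% lower. The lists were not matched to genes of the same level. Members of a list share libraries and regulation, so their counts are not independent.

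Replication and cell division genes were lower in het. Of 61 tested S phase genes, 28 were lower and 0 higher, 40 had groups that did not overlap, 60 had a negative difference, and the median was -0.23. The library medians relative to the WT mean were -0.23, -0.29 and -0.17 in het, against 0.10, -0.02 and -0.08 in WT. The summed level of the list was 5803 to 6167 CPM in het, against 6691 to 7496 CPM in WT, with no overlap. Hells, a chromatin remodeller of the SNF2 family, had 88.7, 84.6 and 87.2 CPM in het, against 146, 120.0 and 113 CPM in WT (log2 -0.54 ± 0.12, adjusted p = 0.147). Mcm4, a subunit of the replicative helicase, had 189, 185 and 187 CPM in het, against 257, 249 and 225 CPM in WT (log2 -0.38 ± 0.10, adjusted p = 0.169). Both genes varied little within het and more within WT. Brca2, which acts in DNA repair by homologous recombination, was at 74.3% of WT. The count depends on which libraries are used. It was 9 without WT replicate 1 and 17 without het replicate 2, with medians of -0.19 and -0.21.

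Of 65 tested G2 and mitosis genes, 23 were lower and 0 higher, with a median of -0.15 and library medians of -0.15, -0.14 and -0.14 in het, against 0.04, -0.03 and -0.02 in WT. Their summed level was 6134 to 6435 CPM in het, against 6923 to 7219 CPM in WT. Top2a, the topoisomerase of dividing cells, had 562, 582 and 540 CPM in het, against 710, 677 and 642 CPM in WT (log2 -0.27 ± 0.07, adjusted p = 0.17). Knl1, a kinetochore scaffold, and Kif20b, a mitotic kinesin, had log2 differences of -0.35 and -0.28. In HPC, whose libraries are separate, 29 of 61 S phase genes and 48 of 65 G2 and mitosis genes were lower in het at the same threshold, with medians of -0.17 and -0.22. The share of all genes lower in het HPC was 13.5%, and 15.1% were higher. Among G1 regulators, Ccnd1 (cyclin D1) averaged 9.40 CPM in het and 13.7 CPM in WT (log2 -0.53, adjusted p = 0.188, chosen after its value was seen), and the median of 13 such genes was -0.04.

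The promoters of S phase genes often carry a site for E2F factors, which drive entry into S phase. The letters TTTGGCGC or TTTCGCGC, on either strand and in the same 300-base windows, were found in 15 of 55 windows (27.3%) of 46 S phase genes, against 0.813% of all windows and 1.41% of windows of genes tested. In the G2 and mitosis list the share was 5.17%. The RUNX core TGTGGT was in 14.5% of S phase windows, against 16.8% of all windows and 13.6% of windows of genes tested. The 250 bases before the start are shown for the 3 S phase genes of smallest p among those with a match there. They are Pola1 (the catalytic subunit of DNA polymerase alpha, log2 -0.33), Dtl (a substrate receptor that limits re-replication, -0.23) and Mcm6 (a helicase subunit, -0.26). Capitals mark the matches, and 2 of the 3 in Mcm6 overlap.
Pola1, chrX:93632156-93632405, minus strand: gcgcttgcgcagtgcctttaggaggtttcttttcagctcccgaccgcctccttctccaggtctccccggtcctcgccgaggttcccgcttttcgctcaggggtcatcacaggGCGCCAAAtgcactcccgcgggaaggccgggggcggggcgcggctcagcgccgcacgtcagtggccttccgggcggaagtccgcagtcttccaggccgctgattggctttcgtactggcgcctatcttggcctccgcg
Dtl, chr1:191575545-191575794, minus strand: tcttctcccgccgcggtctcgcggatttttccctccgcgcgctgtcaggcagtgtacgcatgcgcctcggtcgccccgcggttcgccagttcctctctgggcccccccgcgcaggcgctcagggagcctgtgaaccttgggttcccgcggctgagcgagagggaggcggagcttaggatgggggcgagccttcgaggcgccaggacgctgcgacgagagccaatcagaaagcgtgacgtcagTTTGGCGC
Mcm6, chr1:128359706-128359955, minus strand: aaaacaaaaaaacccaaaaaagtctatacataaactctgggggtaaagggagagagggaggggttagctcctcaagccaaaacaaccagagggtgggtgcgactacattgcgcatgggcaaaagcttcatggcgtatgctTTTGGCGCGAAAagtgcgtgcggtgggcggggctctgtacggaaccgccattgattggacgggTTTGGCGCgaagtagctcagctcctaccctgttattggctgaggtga

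Genes that build ribosomes and genes that encode the ribosome's own proteins lay on opposite sides of WT. Of 68 MYC and ribosome biogenesis genes, 24 were lower and 1 higher, with a median of -0.20 and library medians of -0.19, -0.26 and -0.15 in het, against 0.05, 0.03 and -0.08 in WT. Utp20, a processome component for the small subunit, had 83.2, 74.9 and 65.7 CPM in het, against 120.1, 107 and 88.4 CPM in WT (log2 -0.49 ± 0.13, adjusted p = 0.188). Nop58, a core protein of box C/D particles, had 164, 161 and 168 CPM in het, against 205, 211 and 196 CPM in WT (log2 -0.31 ± 0.09, adjusted p = 0.199). Neither pair of groups overlapped. Noc3l and Wdr43, which act in the assembly of the large and the small subunit, had -0.34 and -0.30. In HPC 52 of 68 were lower in het, with a median of -0.20. The HSC count was 10 without WT replicate 1, 12 without WT replicate 2 and 13 without het replicate 2, and the medians were -0.15, -0.18 and -0.15.

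Of 89 tested genes for cytosolic ribosomal proteins, 46 were higher and 0 lower, 86 had a positive difference, and the median was 0.20. The library medians were 0.12, 0.12 and 0.35 in het, against -0.02, -0.09 and 0.10 in WT, so het replicate 3 held the highest. Together these genes took 84810, 85410 and 98480 CPM in het, against 77550, 74290 and 84560 CPM in WT. Rpl36 had 431, 445 and 520.3 CPM in het, against 324, 311 and 381 CPM in WT (log2 0.46 ± 0.11, adjusted p = 0.169). Fau, whose product is cleaved to a small-subunit protein, had 666, 649 and 823 CPM in het, against 517, 506 and 599 CPM in WT (log2 0.40 ± 0.11, adjusted p = 0.188). In both the groups did not overlap, and WT replicate 3 was the nearest to het. The count of higher members was 12 without het replicate 3, 16 without WT replicate 1 and 10 without WT replicate 2, with medians of 0.11, 0.19 and 0.16. In HPC 25 of 87 were higher and 0 lower in het, with a median of 0.11. Ribosomal protein genes have many processed copies in the genome, so reads may be split or lost between them.

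**Figure D2:**
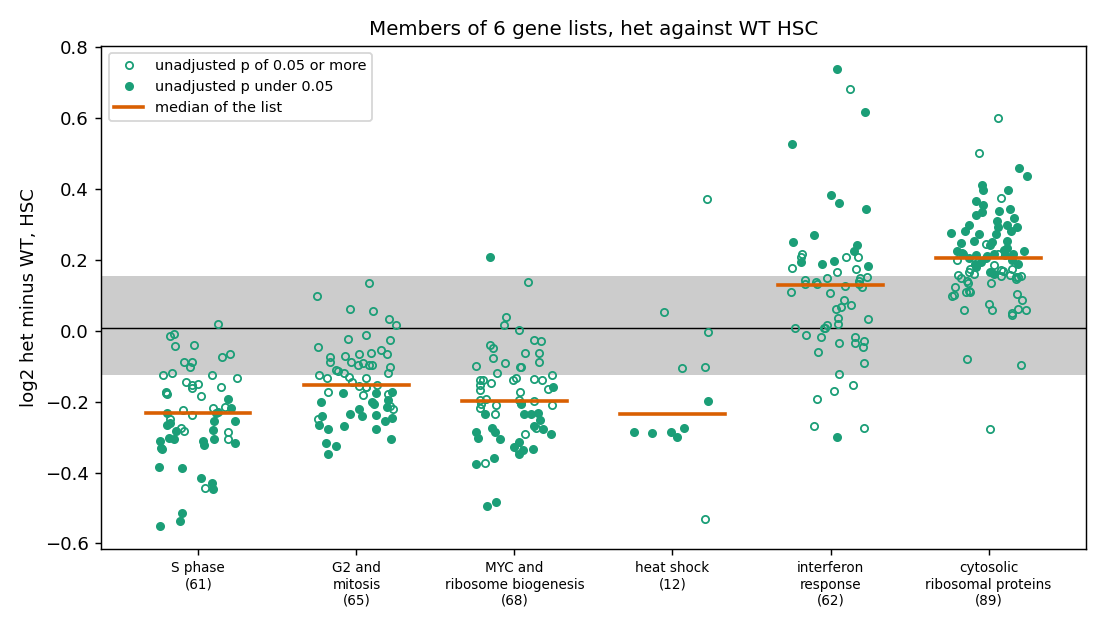
Log2 difference of het minus WT in HSC for each tested member of 6 gene lists, with filled points for an unadjusted p under 0.05, an orange line at the list median, and the interquartile range of all genes tested as a grey band around their median. S phase, G2 and mitosis, ribosome biogenesis and heat shock members lie mostly below the band's centre, at medians of -0.23, -0.15, -0.20 and -0.24, and ribosomal protein members above it, at 0.20.

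Ribosomal protein genes are short, and gene length moved with the comparison. Tested genes were put into 5 classes of equal size by summed exon length. The median difference was 0.05 in the shortest class and -0.02 in the longest, and 73 of the 89 ribosomal protein genes were in the shortest. The medians of het replicate 3 against the WT mean were 0.13 in the shortest and -0.12 in the longest class, and those of het replicate 2 were -0.01 and 0.06. The 3 WT libraries stayed between -0.03 and 0.02, but they make up the mean that is subtracted, which by itself draws them toward 0. Set against genes of the same length class, the ribosomal protein median was 0.16, the S phase median -0.24 and the ribosome biogenesis median -0.20. For 79 nuclear genes of the respiratory chain, of which 10 were higher and 1 lower, the median of 0.07 became 0.03 on the same footing, and the higher members numbered 1 without het replicate 3, 2 without WT replicate 1 and 1 without WT replicate 2. What part length had in these values was not tested beyond this.

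**Figure D3:**
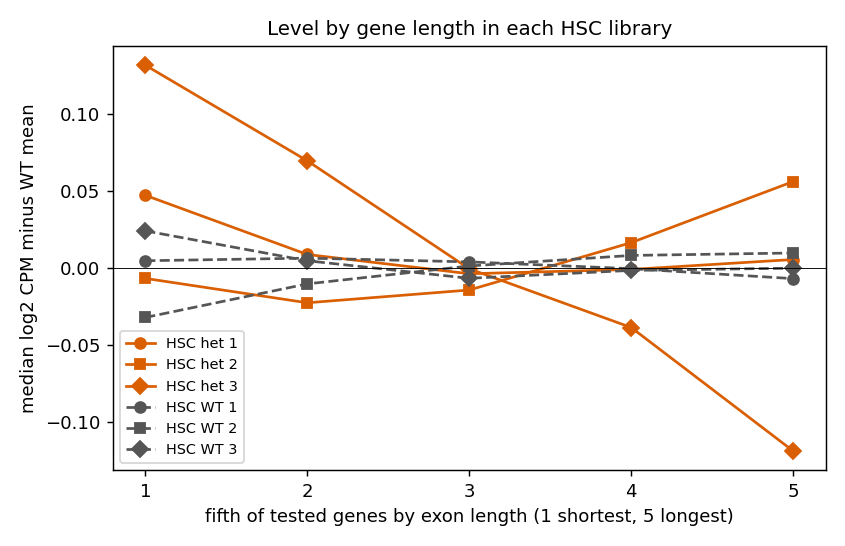
Median of log2 CPM minus the WT mean for tested genes in 5 classes of summed exon length, 1 line per HSC library, het solid and WT dashed. Het replicate 3 declines with length and het replicate 2 rises slightly. The WT lines stay near 0, in part because they form the mean that is subtracted.

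Chaperone and lipid genes were lower as well. Of 12 heat shock genes, 6 were lower and 0 higher, with a median of -0.24. Hsp90aa1, the inducible cytosolic HSP90, had 877, 887 and 921 CPM in het, against 1168, 1105 and 1010 CPM in WT (log2 -0.29 ± 0.08, adjusted p = 0.188). Dnaja1, an HSP40 co-chaperone, had 154, 152 and 166 CPM in het, against 194, 193 and 183 CPM in WT (log2 -0.27 ± 0.08, adjusted p = 0.205). The groups were separate in both, and Hspa4 and Hspd1 had -0.29 and -0.30. In HPC the heat shock median was -0.02, with 1 of 11 higher and 0 lower.

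Of 18 genes of fatty acid synthesis and uptake, 7 were lower and 0 higher, with a median of -0.18. Acaca, which makes malonyl-CoA, was at 79.5% of WT (log2 -0.33 ± 0.10), Scd2, a stearoyl-CoA desaturase, at 84.9% (-0.24 ± 0.09) and the elongase gene Elovl6 had -0.23. Without WT replicate 1 or WT replicate 2 the count was 4. Lpl, the lipoprotein lipase, had 3.91, 3.79 and 5.03 CPM in het, against 8.18, 8.56 and 6.38 CPM in WT (log2 -0.86 ± 0.22, adjusted p = 0.169), and 1.20 on the log2 scale in HPC. Of 24 genes of cholesterol synthesis, 8 were lower and 0 higher (median -0.14), but only 1 was lower without WT replicate 1 or without WT replicate 2, and 2 without het replicate 2 or het replicate 3. Idi1 and Hmgcs1, enzymes of the mevalonate pathway, had -0.36 and -0.29.

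Of 10 genes encoded in mitochondrial DNA, 5 were lower (median -0.28), yet in 0 of them were the groups separate. CYTB had 1339, 1200.0 and 1556 CPM in het, against 1778, 1922 and 1475 CPM in WT. WT replicate 3 lay within the het range, and without WT replicate 2 or het replicate 2 the count was 0, without het replicate 1 it was 1, and without WT replicate 1 it was 2. Of 12 STAT5 feedback and survival genes, 4 were lower (median -0.18), among them Cish, a cytokine-induced inhibitor of that pathway (log2 -0.29 ± 0.12), Bcl2 (-0.21 ± 0.08) and Mcl1 (-0.22 ± 0.09), both of which keep cells from dying. Without WT replicate 2 the count was 0, and without het replicate 2 it was 1. Id1 had -0.43. The immediate early genes, which respond to handling within minutes, spread widely. Their library medians were 0.12, -0.38 and -0.10 in het, against -0.42, 0.42 and -0.04 in WT, so the groups overlapped.

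Of 62 tested interferon-responsive genes, 14 were higher in het and 1 lower, with a median of 0.13, and the count rested in part on het replicate 2. The library medians were -0.05, 0.27 and 0.05 in het, against 0.05, 0.03 and -0.07 in WT, so the groups overlapped as a list and het replicate 2 was the highest. Without that library 8 were higher and 5 lower and the median was 0.02, and without WT replicate 2 or WT replicate 3 the higher members numbered 7 and 8. Besides Ifi27, the members of smallest p were Psmb9, described above, Ifi27l2a and Irf7. Ifi27l2a, a paralogue of Ifi27 with 11.7% of its exon bases shared with another gene, had 38.1, 46.8 and 59.4 CPM in het, against 26.2, 27.7 and 32.3 CPM in WT (log2 0.74 ± 0.15, adjusted p = 0.142). Irf7, the transcription factor that amplifies the type I interferon response, had 205, 290.2 and 251 CPM in het, against 184, 172 and 161 CPM in WT (log2 0.53 ± 0.12, adjusted p = 0.15). Both kept their groups apart. In HPC 30 of 62 were higher in het and 1 lower, with a median of 0.16.

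The response element bound by interferon-activated factors is searched here as GAAA, any 2 bases and GAAA, on either strand. It was found in 23 of 55 windows (41.8%) of 47 interferon-responsive genes, against 3.44% of all windows. The 3 members of smallest p with a match before the start are shown with matches in capitals. They are Oas3 and Oas1a, which make the activator of RNase L (log2 0.25 and 0.20), and Bst2, which tethers budding virus particles (0.22). The matches in Bst2 overlap, as do those in Oas1a. RefSeq's table held no window for Ifi27.
Oas3, chr5:120777660-120777909, minus strand: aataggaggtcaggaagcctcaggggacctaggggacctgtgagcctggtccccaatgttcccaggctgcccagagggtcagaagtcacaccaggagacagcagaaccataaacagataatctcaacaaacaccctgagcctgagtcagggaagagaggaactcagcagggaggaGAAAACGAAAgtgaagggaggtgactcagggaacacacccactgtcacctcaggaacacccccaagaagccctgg
Bst2, chr8:71537473-71537722, minus strand: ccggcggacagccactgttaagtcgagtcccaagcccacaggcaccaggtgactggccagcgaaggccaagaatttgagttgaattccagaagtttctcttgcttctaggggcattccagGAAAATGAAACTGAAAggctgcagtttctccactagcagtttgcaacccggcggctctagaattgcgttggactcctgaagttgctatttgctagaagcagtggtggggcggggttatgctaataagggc
Oas1a, chr5:120907526-120907775, minus strand: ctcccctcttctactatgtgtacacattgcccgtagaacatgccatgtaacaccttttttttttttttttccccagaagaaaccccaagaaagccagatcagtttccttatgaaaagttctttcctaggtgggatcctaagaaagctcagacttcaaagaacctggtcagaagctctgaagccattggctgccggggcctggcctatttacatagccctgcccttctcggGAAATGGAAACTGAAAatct

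The share of stem cell genes past the unadjusted threshold was near that of all genes. Of 34 tested, 3 were higher in het (8.82%, against 7.1% of all genes) and 0 lower, 9 had groups that did not overlap, all of them higher, and 25 had a positive difference. The median was 0.12, with library medians of 0.09, 0.12 and 0.12 in het, against -0.06, 0.00 and 0.06 in WT. Pdzk1ip1, a membrane protein gene used as a stem cell marker, had 49.0, 48.8 and 51.0 CPM in het, against 30.9, 33.8 and 40.5 CPM in WT (log2 0.50 ± 0.16, adjusted p = 0.246). Esam, an endothelial and stem cell adhesion gene, had 46.7, 47.2 and 47.3 CPM in het, against 36.9, 34.2 and 42.3 CPM in WT (log2 0.32 ± 0.14, adjusted p = 0.351). Procr, part of the sort, had 66.9, 67.0 and 66.5 CPM in het, against 42.6, 45.6 and 57.2 CPM in WT (log2 0.46 ± 0.17, adjusted p = 0.285). In these 3 genes the het libraries were close together and WT replicate 3 was the nearest to them. Lmo2, a haematopoietic cofactor, and Hoxa9, a homeobox factor, had log2 differences of 0.17 and 0.19. Only 1 was higher without het replicate 3, WT replicate 1 or WT replicate 2. In bulk RNA, fewer cells of a type and less RNA per cell cannot be told apart.

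Genes of T-cell commitment split. Of 27 listed, 16 were tested, of which 3 were lower and 1 higher, with a median of -0.16. Tox, a factor needed for T-cell development, had 11.9, 12.3 and 13.1 CPM in het, against 22.6, 16.9 and 17.3 CPM in WT (log2 -0.61 ± 0.14, adjusted p = 0.147). Hes1, a Notch target, had 0.59, 0.34 and 1.04 CPM in het, against 2.73, 2.05 and 1.88 CPM in WT (log2 -1.73 ± 0.44, adjusted p = 0.17). Tcf7, which starts the T-cell programme, had 10.5, 9.24 and 8.61 CPM in het, against 10.9, 14.7 and 11.1 CPM in WT (log2 -0.38 ± 0.17, adjusted p = 0.342). All 3 had groups that did not overlap, and their log2 differences in hom HSC were -1.25, -1.72 and -0.92, while the median of the whole list was -0.04 in hom HSC and 0.03 in het HPC. Lat, an adaptor of T-cell receptor signalling, was on the other side, at 0.26 ± 0.10. Without WT replicate 2 the median was -0.07. Of 12 tested lymphoid priming genes, 2 were lower and 1 higher. Without het replicate 3 or WT replicate 2 only 1 was lower. Ccr7, a homing receptor, averaged 3.53 ± 1.28 CPM in het and 6.93 ± 0.86 CPM in WT (SD, n = 3), Il7r, the interleukin 7 receptor, 0.28 and 0.76 CPM, and Flt3, a growth factor receptor of early progenitors, 218 and 194 CPM, with log2 differences of -0.97, -1.43 and 0.17.

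Myeloid markers did not go one way. Of 21 monocyte and macrophage genes, 17 were tested, with 4 lower, 0 higher and a median of -0.16. Ccr2, the chemokine receptor of inflammatory monocytes, had 1.47, 1.28 and 1.29 CPM in het, against 3.11, 4.59 and 3.13 CPM in WT (log2 -1.42 ± 0.29, adjusted p = 0.126). F13a1, the coagulation factor XIII subunit, had 1.44, 1.33 and 1.46 CPM in het, against 4.47, 3.80 and 2.31 CPM in WT (log2 -1.31 ± 0.28, adjusted p = 0.142). Each het library lay below each WT library, but the list summed to 320.2 to 336 CPM in het and 312 to 338 CPM in WT, so its total did not differ in the same way. Leaving out a library gave medians of -0.16 to -0.32. In HPC 16 of 19 were higher in het, with a median of 0.83, and the difference between HSC and HPC was not tested.

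Of 20 neutrophil genes, 8 were tested, with 2 higher, 0 lower and a median of -0.36. Gfi1, a repressor needed in stem cells and neutrophils, had 116, 134 and 116 CPM in het, against 78.4, 81.1 and 90.8 CPM in WT (log2 0.55 ± 0.18, adjusted p = 0.251), and the granule protease gene Prtn3 had 41.3, 48.5 and 46.9 CPM in het, against 34.1, 32.9 and 40.5 CPM in WT (0.35 ± 0.14). The granule genes Mpo and Elane had lower means, 52.2% and 40.5% of WT, with log2 standard errors of 0.58 and 0.76. The list's sum of 401 to 433 CPM in het lay above its 362 to 387 CPM in WT, and the count of higher members was 1 without het replicate 2, het replicate 3, WT replicate 1 or WT replicate 2. Of 17 mast cell and basophil genes, 11 were tested, with 3 lower, 1 higher and a median of -0.85. These were low transcripts, and the list's sum did not follow its median, with 173, 156 and 161 CPM in het, against 119.9, 165 and 126 CPM in WT. Ms4a2, a subunit of the IgE receptor, averaged 0.17 CPM in het and 0.65 CPM in WT, and the cytokine gene Il4 went the other way, at 3.51 and 1.78 CPM. Prss34, a basophil protease, had 0 counts in all het libraries and 30, 1 and 13 counts in WT. With at least 1 CPM required in 3 libraries the list's median was -0.23, and with the het and WT libraries fitted alone it was -0.22.

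The lists of bone targets and of lineage-depletion markers had no member past the unadjusted threshold. Of 27 RUNX2 targets in bone, 11 were tested, 0 were lower or higher, and the median was -0.23, with 2 lower without het replicate 3 and a median of -0.12 without het replicate 1. Spp1 (osteopontin), the best expressed of those named, had 13.3, 16.0 and 17.9 CPM in het, against 19.8, 17.3 and 18.3 CPM in WT, with overlap. Tnfrsf11b (osteoprotegerin) and Tnfsf11 (RANKL) had log2 differences of -0.63 ± 0.39 and -0.24 ± 0.17, and Fgfr1 had 0.15 ± 0.10. Of the 5 tested lineage-depletion markers, Cd5 had 0.41, 0.54 and 0.42 CPM in het, against 0.05, 0.22 and 0.30 CPM in WT, and the others overlapped between groups.

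The list medians of hom HSC, against the same WT libraries, did not all follow those of het. For HSC identity genes the median was 0.12 in het and -0.10 in hom, for ribosomal proteins 0.20 and -0.02, for ribosome biogenesis -0.20 and -0.02, and for neutrophil genes -0.36 and 0.28. For S phase genes it was -0.23 in het and -0.09 in hom, for heat shock genes -0.24 and -0.09, and for mast cell and basophil genes -0.85 and -0.12. The G2 and mitosis list had -0.15 in het and -0.22 in hom, the interferon list 0.13 and 0.28, and the monocyte and macrophage list -0.16 and -0.13. The hom libraries differed among themselves. Library medians of hom replicates 1, 2 and 3 were -0.36, -0.12 and 0.16 for HSC identity. They were 0.22, -0.03 and -0.27 for ribosome biogenesis and 0.16, -0.13 and -0.30 for S phase. Neutrophil genes had 0.44, 0.14 and -0.33, and mast cell and basophil genes 0.22, -0.03 and -0.66. In each of these lists hom replicate 3 lay on the side of het and hom replicate 1 on the other. G2 and mitosis had -0.21, -0.22 and -0.22. The difference between het and hom was not tested.

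Of the RUNX family, Runx1 averaged 196 ± 10.0 CPM in het and 188 ± 11.3 CPM in WT (SD, n = 3), and Runx3 140.0 ± 5.5 CPM in het and 134 ± 2.2 CPM in WT. Cbfb, the shared partner, had 160, 169 and 167 CPM in het, against 191, 189 and 182 CPM in WT, without overlap (log2 -0.18 ± 0.07, adjusted p = 0.31). Runx3 also has copies on an alternate contig. On chromosome 17, 75 genes within 5 Mb of the Runx2 start were tested, of which 11 were higher and 3 lower, with a median of 0.06. These shares were 14.7% and 4%, against 7.1% and 6.72% of all genes. In HPC 12 of 74 were higher and 8 lower in het, with a median of -0.02. The HPC shares were 16.2% and 10.8%, against 15.1% and 13.5% of all genes.

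**Figure D4:**
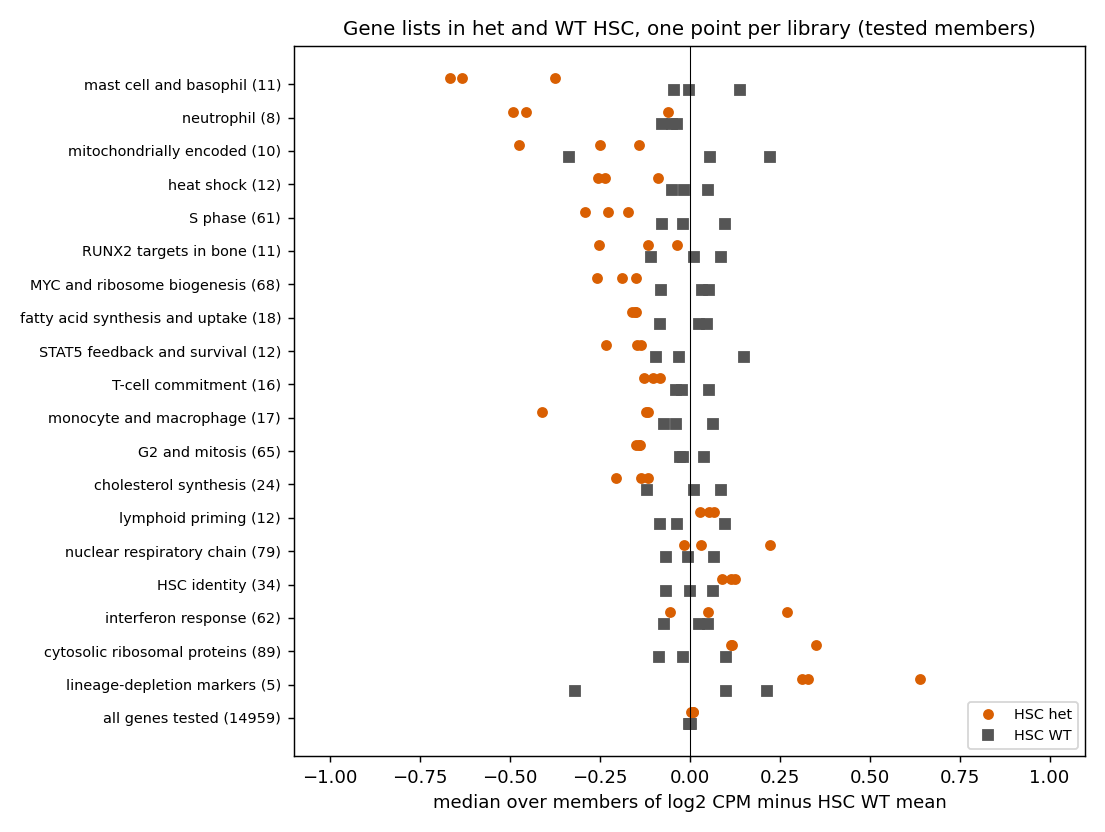
Median over the members of each gene list of log2 CPM minus the WT mean, 1 point per HSC library, het as orange circles and WT as grey squares, ordered by the fitted median and with tested members in brackets. All 3 het libraries lie below all 3 WT libraries in the mast cell, heat shock, S phase, ribosome biogenesis, fatty acid, STAT5, T-cell, monocyte and G2 and mitosis lists, and above them in the HSC identity, ribosomal protein and lineage-depletion lists. Of the lists shown, 12 were chosen for a median far from that of all genes in these libraries, and others after their values were seen. That choice favours separate groups.

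Among the other lists, p53 targets had 4 of 21 higher and 0 lower (median 0.06), HOX genes 2 of 18 and 0 (0.10), glycolysis and hypoxia 4 of 34 and 0 (0.04), adhesion 5 and 1 of 34 (0.04), chemokines and receptors 1 and 4 of 20 (-0.06), chromatin regulators 1 and 4 of 24 (-0.06) and the proteasome 2 and 3 of 36 (-0.08). The stress response list had 3 and 2 of 29 (-0.06), cytokine receptors 4 and 2 of 31 (0.02), megakaryocyte genes 2 and 0 of 17 (-0.01), erythroid genes 2 and 1 of 12 (0.04) and histone genes 0 of 18 in either direction (-0.01).

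The het HSC were also set beside HPC, which share no library with them. Over 13493 genes tested in both, the het minus WT differences correlated at r = 0.26 across genes, given as a description, since genes are not independent. Of 1979 of these with an unadjusted p under 0.05 in HSC, 1528 (77.2%) had the same sign in HPC, against 61.7% of all 13493. Of the genes called between hom and WT HPC, 682 were higher (4.92%) and 594 lower (4.29%). Het HSC were tested for 605 of the higher ones. Of these, 84 (13.9%) had a higher and 34 (5.62%) a lower level than WT at the unadjusted threshold, with a median of 0.06. Of the 582 lower ones, without Runx2, 41 were higher and 55 lower, with a median of 0.008.

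**Figure D5:**
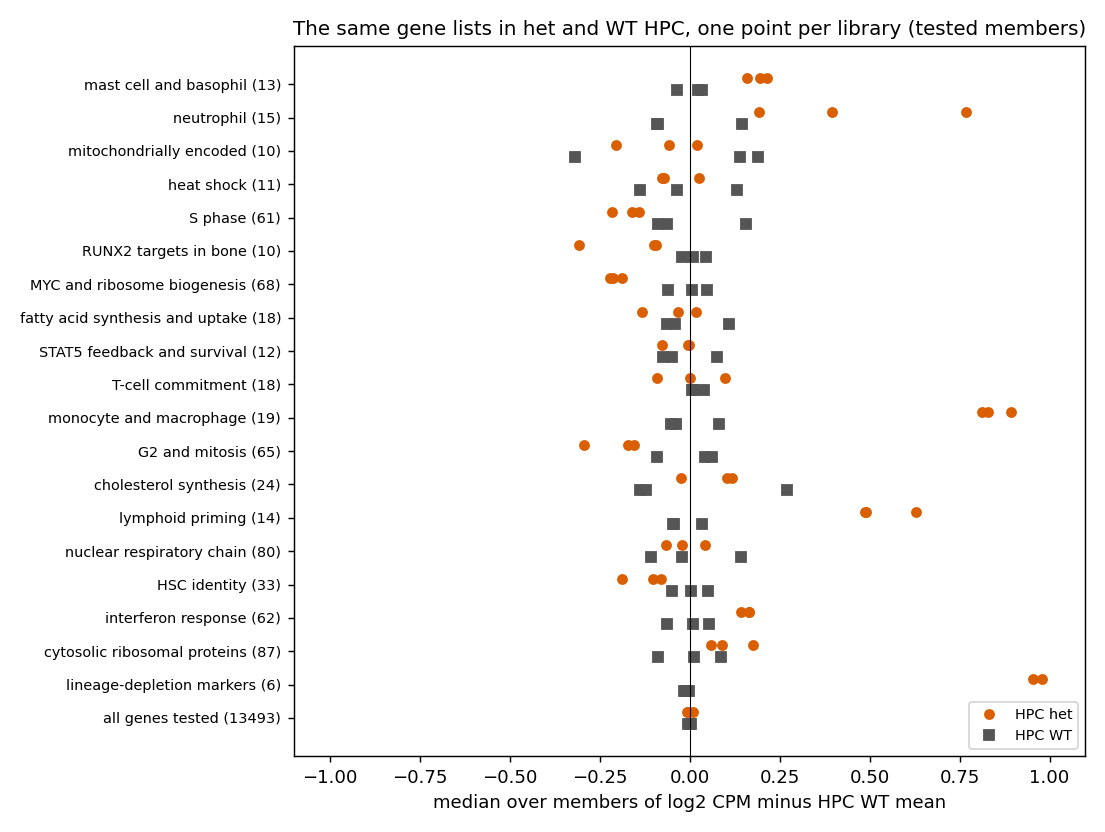
The same lists in HPC, as median over members of log2 CPM minus the HPC WT mean, 1 point per library, in the order used for HSC. S phase, G2 and mitosis and ribosome biogenesis have all 3 het libraries below WT in HPC too, while neutrophil and monocyte lists lie above WT there.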

How the data were processed

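RNA of 3 het and 3 WT HSC libraries was compared. The submitters' processing notes list FastQC, Trim Galore (0.6.10), STAR (2.7.11a) and featureCounts (2.0.6). The deposited values are raw counts of read pairs over exons summed by gene, made per the file headers without regard to strand and with an mm10 annotation. The notes name mm39, and coordinates are printed as in the files, as mm10. Counts without strand cannot tell a gene from an antisense partner.

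The main test was edgeR 4.0.16 (R 4.3.3), a robust quasi-likelihood fit of all 9 HSC libraries with TMM factors and filterByExpr, and Benjamini-Hochberg adjustment over 14959 genes, called at an adjusted p under 0.05. HPC were fitted in the same way. The procedure was tested on simulated data. CPM were computed here with TMM factors, except that sums over lists and sort and lineage markers use library totals. Library medians of lists use log2 CPM with a prior count of 2, so they can differ from the fitted median. A floor of 3 counts equals 0.111 to 0.162 CPM per HSC het or WT library and covers counting error only. No 2 libraries of a group agreed within sampling noise (chi-square per degree of freedom of 6.99 or more).

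The 40 gene lists were written from general knowledge, and they and the comparison were chosen with earlier results of these data known. Named genes are all called genes, the 8 higher and 8 lower uncalled genes of smallest p with separate groups, a mean of at least 5 CPM in the higher group and no predicted name, RUNX genes and sort markers, and up to 4 members by p of each list described. These are the 12 lists with at least 5 tested members whose median was farthest from that of all genes, plus 5 stem and lineage lists, of which 2 were among the 12. The G2 and mitosis, interferon, cholesterol and respiratory chain lists and the promoter genes were added after their values were seen. A gene that this rule names is not reported here. Lists were not tested. Alternatives were other scalings, DESeq2 1.42.0, limma-voom (limma 3.58.1), other filters, fewer libraries and a replicate block. CUT&Tag libraries were not used here.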

Additional observations from a re-analysis of the deposited data

Results flagged for a closer look

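In 4 gene lists the median of every het library lay on one side of the WT mean in HSC and on the other side in HPC. The difference between the cell types was not tested, and the summed levels of the lists did not all follow the medians. The fitted median of mast cell and basophil genes was -0.85 in HSC and 0.196 in HPC. The HSC value rests on low genes, and was -0.23 with at least 1 CPM required in 3 libraries and -0.22 with the het and WT libraries fitted alone. The sum of this list overlapped in HSC, with 156 to 173 CPM in het and 119.9 to 165 CPM in WT. In HPC its sum was lower in het, at 408 to 431 CPM against 502.5 to 526.5 CPM in WT. The fitted median of neutrophil genes was -0.36 in HSC and 0.379 in HPC. Their sum was higher in het in both cell types. It was 401 to 433 CPM in het HSC against 362 to 387 CPM in WT, and 2138 to 2532 CPM in het HPC against 1805 to 1848 CPM in WT. For monocyte and macrophage genes the fitted median was -0.16 in HSC and 0.831 in HPC, and the HSC value was -0.32 with limma-voom and -0.31 with a replicate block. The sum of this list overlapped between het and WT in HSC. For HSC identity genes it was 0.12 in HSC and -0.122 in HPC, where the sum overlapped between het and WT. The first 3 lists are low in HSC, where 11, 8 and 17 of their members passed the filter, against 13, 15 and 19 in HPC. Groups of 3 libraries are too small to single out one library by its distance from the others.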

How the results depend on the processing

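The count of called genes was 5 with RLE size factors, with library totals and with at least 1 CPM in 3 libraries, and 7 with limma-voom. DESeq2 called 192 (92 higher), a fit without a filter on low counts 399 (213 higher) and a fit of the het and WT libraries alone 299 (147 higher), and all 5 main calls were among them each time. Leaving out 1 library gave 2 to 7 calls. These were 2 without het replicate 1, het replicate 3 or WT replicate 1, 3 without WT replicate 2, 6 without WT replicate 3 and 7 without het replicate 2. Sva and Gm32920 were called under all 14 alternatives, and Commd10, Runx2 and Ifi27 under 9 of 14, with differences of 0.86 to 0.97, -0.55 to -0.49 and 0.51 to 0.68 on leaving out a library. The cause of these changes was not tested. With a replicate block 7 genes were called. Over all genes, deviations of same-numbered het and WT libraries correlated at 0.00, -0.02 and 0.03, against -0.07 to 0.07 for unlike numbers. A pairing that acts on only some genes was not tested. No median of the lists described turned its sign under any alternative. The median of all genes moved by less than 0.02 with scaling. In counts simulated for this comparison over 14721 genes, 189 of 200 genes changed 2-fold were called, with 12 false calls. The 200 genes all had a mean above 5 CPM, and noise was drawn for each gene on its own. Smaller changes, changes in lower genes and shifts of whole libraries were not simulated.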
